A study of Homo sapiens with 12 samples.

Results

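The genes described here govern the passage of a cell through G1 into DNA synthesis. They are the D-type cyclin genes CCND1 and CCND3 and their kinase gene CDK6, the kinase inhibitor genes CDKN1B (p27) and CDKN2C (p18), SKP2, whose product marks p27 for destruction, the pocket protein genes RB1 and RBL1 (p107), the transcription factor gene E2F1, and MYC. Every probe set whose only platform gene symbol was 1 of these 10 genes was taken, which gave 24 of the 54613 probe sets that were not array controls. They covered 9 genes, since no probe set carried the symbol CDKN2C in the annotation used here. Probe sets needed a log2 signal over 4 on 3 or more of the 12 arrays to be tested, and 11 of the 24 met this, for CCND1, CCND3, CDKN1B, SKP2, RB1, E2F1 and MYC. Of these 11, 9 were above 4 on all 12 arrays and 2 on 11 arrays, so none was tested only because it was high in 1 group.

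All arrays were made from LNCaP, an androgen-sensitive line from a human prostate adenocarcinoma, after 48 h without androgen. The 4 groups of 3 arrays were control siRNA with ethanol vehicle, control siRNA with R1881, SRF siRNA with vehicle, and SRF siRNA with R1881. SRF, serum response factor, is a transcription factor that binds CArG boxes, and R1881 is a synthetic androgen given at 5 nM for 48 h, starting 42 h after transfection. The labels call the 3 arrays of a group biological replicates without naming separate cultures, and the p-values therefore cover only how far these arrays vary, which may be technical variation. In bulk RNA, fewer cells that express a gene and less of its RNA per cell cannot be told apart.

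In G1, D-type cyclins activate CDK4 and CDK6, which phosphorylate the retinoblastoma protein and its relatives and so release E2F factors to switch on genes of DNA synthesis. Cyclin E with CDK2 completes this step, and p27 and the INK4 proteins such as p18 hold the kinases in check. MYC, paired with MAX at E-box sequences, drives growth genes and eases the same transition. In LNCaP cells androgen supports proliferation at low doses and slows it at high doses.

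The deposited log2 GCRMA signals were used as they were, with array medians of 2.97 to 3.06. SRF was lower after its siRNA in both treatments, by -1.34 ± 0.14 in vehicle and -1.44 ± 0.14 in R1881 (SE; limma adjusted p = 1.54e-05 and 6.91e-06), on the probe set that passed the filter. Of 8 LNCaP markers with a probe set, all were above 4 on every array, while 4 of 5 markers of basal or mesenchymal lines, 3 of 5 of fibroblasts and all 3 of leukocytes were above 4 on none. The exceptions were VIM, COL1A1 and, on 7 arrays, COL3A1. The mean level of the basal or mesenchymal list ran from 3.47 to 3.53 in control vehicle, 3.37 to 3.42 in control R1881, 3.66 to 3.71 in silenced vehicle and 3.82 to 3.88 in silenced R1881. That of the fibroblast list moved with R1881, from 4.10 to 4.22 in control vehicle, 3.47 to 3.59 in control R1881, 4.39 to 4.43 in silenced vehicle and 3.59 to 3.78 in silenced R1881, with COL3A1 at means of 6.45, 2.97, 7.92 and 4.07 in the same order. The part of these genes in the results was not tested. GAPDH probe sets at the 3-prime and 5-prime ends of the transcript, which report on intact RNA, differed by 0.14 ± 0.09 in control vehicle, 0.46 ± 0.02 in control R1881, 0.36 ± 0.04 in silenced vehicle and 0.49 ± 0.14 in silenced R1881 (SD, n = 3 each). This gap moved with R1881 in control cells and with silencing in vehicle (exact permutation p = 0.1 for each, the smallest that 3 against 3 arrays allow). A change is given with the gap as a covariate where that ended or gained a call or turned a direction. For R1881 in control cells and SRF siRNA in vehicle, the arrays of the groups did not overlap in this gap. A value with the covariate therefore cannot cleanly separate the gap from the group there.

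Of the 11 probe sets, that of MYC showed the largest change with R1881 in control cells and the largest with SRF siRNA in R1881. Its probe set 202431_s_at stood at 10.85, 11.05 and 10.94 on the control vehicle arrays and at 7.50, 7.75 and 7.61 on the control R1881 arrays. With SRF siRNA it stood at 11.72, 11.59 and 11.62 in vehicle and at 10.83, 10.97 and 10.76 in R1881. Control cells given R1881 were thus far below the other 3 groups, with no overlap, and silenced cells given R1881 overlapped control cells in vehicle. R1881 lowered MYC by -3.33 ± 0.09 (SE) in control cells, to 9.96% of the vehicle signal (limma adjusted p = 1.24e-10). In silenced cells the change was -0.79 ± 0.09, to 58.0% of the vehicle signal (adjusted p = 2.44e-05). The difference of these effects was 2.54 ± 0.13 (adjusted p = 3.28e-07), and it lay between 2.48 and 2.61 under all 26 alternatives. SRF siRNA raised MYC by 0.69 ± 0.09 in vehicle (adjusted p = 6.66e-05) and by 3.24 ± 0.09, or 9.42-fold, in R1881 (adjusted p = 7.56e-10). This last comparison uses the same control R1881 arrays as the fall in control cells. MYC had a single probe set, so no other set on the array checks these values.

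**Figure D1:**
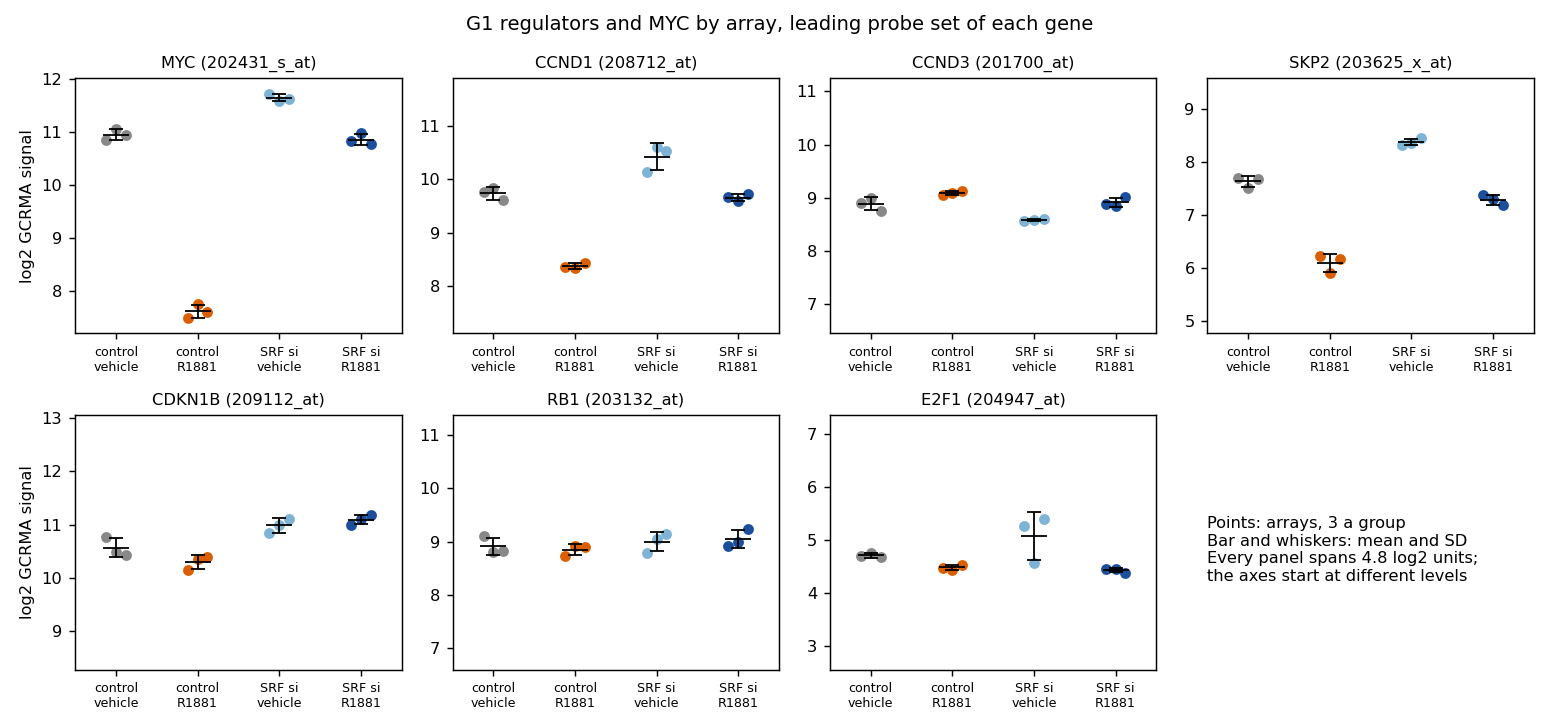
Log2 GCRMA signal on each array for the leading probe set (highest mean) of the 7 tested genes, by group, with the mean and SD of 3 arrays. Each panel spans the same number of log2 units from its own starting level; MYC in control R1881 lies at 7.50 to 7.75 against 10.76 to 11.72 elsewhere, while CCND3 moves opposite to CCND1 and RB1 overlaps between neighbouring groups.

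The cyclin D1 gene CCND1 fell with R1881 and rose with SRF siRNA on both of its probe sets. Probe set 208712_at read 9.76, 9.85 and 9.60 in control vehicle and 8.36, 8.32 and 8.42 in control R1881, a change of -1.37 ± 0.12 (SE; limma adjusted p = 1.47e-06). After silencing it read 10.14, 10.62 and 10.54 in vehicle and 9.66, 9.59 and 9.73 in R1881, a change of -0.77 ± 0.12 (adjusted p = 0.000229). As for MYC, silenced cells in R1881 overlapped control cells in vehicle on this probe set. The second probe set, 208711_s_at, changed by -1.30 ± 0.12 in control and -1.28 ± 0.12 in silenced cells (adjusted p = 1.81e-06 and 3.17e-06). The probe sets correlated at a Pearson r of 0.950 over the 12 arrays, which share the group structure, but they disagreed on whether silencing changed the response.

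The difference of R1881 effects was 0.60 ± 0.17 on 208712_at (limma adjusted p = 0.0289) and 0.02 ± 0.16 on 208711_s_at (adjusted p = 0.947). The first lost its call without the first or second control vehicle array, the first or second control R1881 array, or the first or the third silenced R1881 array, with adjusted p from 0.0507 to 0.0666, and its value stayed between 0.54 and 0.59 in those fits. SRF siRNA raised CCND1 in vehicle by 0.70 ± 0.12 and 0.90 ± 0.12 and in R1881 by 1.29 ± 0.12 and 0.92 ± 0.12 on 208712_at and 208711_s_at.

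CCND3, the gene of cyclin D3, moved the other way and by little. Its probe set 201700_at read 8.90, 8.99 and 8.75 in control vehicle, 9.06, 9.09 and 9.13 in control R1881, 8.57, 8.57 and 8.60 in silenced vehicle, and 8.87, 8.84 and 9.01 in silenced R1881. The lowest group was silenced vehicle and the highest control R1881, and the 2 groups between them overlapped. R1881 raised it by 0.33 ± 0.08 (SE) in silenced cells (limma adjusted p = 0.00551). In control cells the rise was 0.21 ± 0.08 (adjusted p = 0.0416), a call that was lost without any of the 3 control R1881 arrays, the first or the third control vehicle array, or the second or the third silenced vehicle array (adjusted p from 0.0509 to 0.154), and with the GAPDH covariate (0.00, adjusted p = 0.984). SRF siRNA lowered it by -0.30 ± 0.08 in vehicle (adjusted p = 0.00848), and in R1881 the value was -0.18 ± 0.08 (adjusted p = 0.0714). That value was called without the third silenced R1881 array (-0.24, adjusted p = 0.0385) and with the GAPDH covariate (-0.20, adjusted p = 0.0372). A second CCND3 probe set lay between 2.01 and 2.10 on all arrays.

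CDK6, the second cyclin D kinase gene, gave no signal above 4 on any array. Its 7 probe sets lay between 2.21 and 3.34 on all 12 arrays, at the level of dim probe sets, and its highest values were 3.34 for 243000_at and 3.04 for 224847_at, both in control R1881. CDK4, the other cyclin D kinase gene, was well above the limit, at 10.25 in control vehicle, 9.06 in control R1881, 11.16 in silenced vehicle and 10.33 in silenced R1881 (means of 3 arrays). CDK4 fell with R1881 by -1.19 ± 0.07 in control and -0.83 ± 0.07 in silenced cells (SE), and the difference of 0.35 ± 0.09 passed the test.

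**Figure D2:**
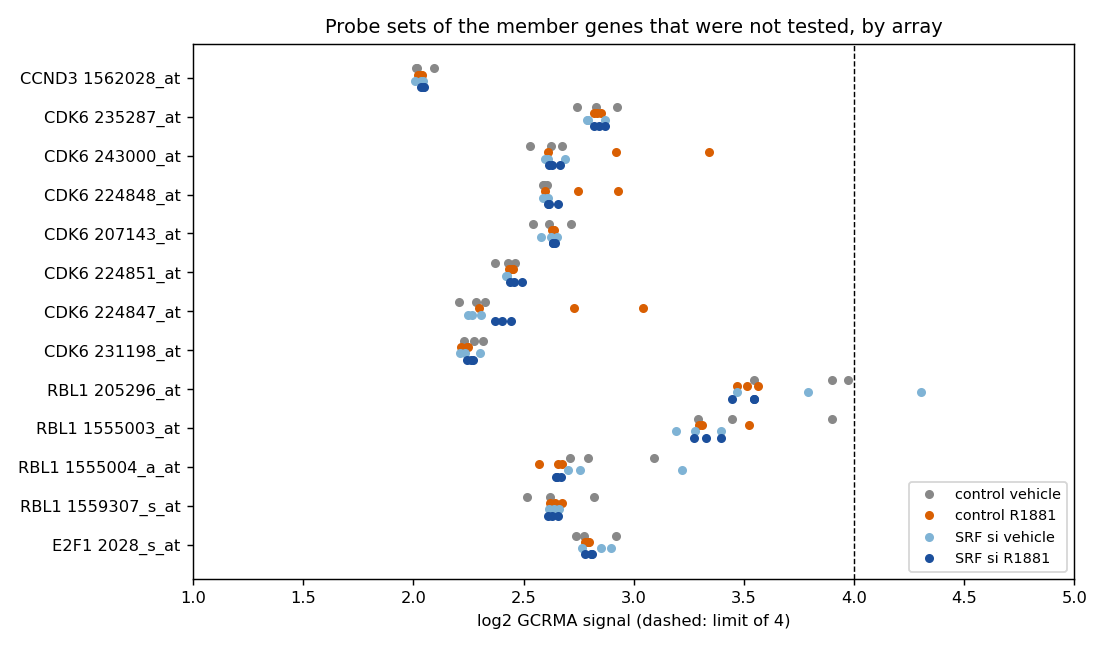
Log2 GCRMA signal on each array of the 13 probe sets that were not tested, coloured by group, with the limit of 4 dashed. All 7 CDK6 probe sets lie at 3.34 or below, and only the RBL1 probe set 205296_at crosses the limit, on 1 array.

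SKP2, the substrate receptor of the ubiquitin ligase that marks p27, fell with R1881. Probe set 203625_x_at read 7.70, 7.50 and 7.68 in control vehicle, 6.21, 5.90 and 6.17 in control R1881, 8.32, 8.35 and 8.44 in silenced vehicle, and 7.37, 7.29 and 7.17 in silenced R1881. No neighbouring groups overlapped, and silenced cells in R1881 lay below control cells in vehicle. The change with R1881 was -1.53 ± 0.10 (SE) in control cells, to 34.5% of the vehicle signal (limma adjusted p = 1.28e-07), and -1.09 ± 0.10 in silenced cells, to 46.9% (adjusted p = 3.40e-06). SRF siRNA raised it by 0.74 ± 0.10 in vehicle and by 1.18 ± 0.10 in R1881 (adjusted p = 7.94e-05 and 1.74e-06).

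The other 2 SKP2 probe sets were dimmer and more scattered. On 210567_s_at the R1881 changes were -1.16 ± 0.30 and -1.23 ± 0.30 in control and silenced cells (SE; limma adjusted p = 0.00532 and 0.00486), and on 203626_s_at they were -0.63 ± 0.26 and -1.02 ± 0.26 (adjusted p = 0.0613 and 0.00783). With the GAPDH covariate, which moved with R1881 in control cells, the control values became 0.11 and 0.22 (adjusted p = 0.845 and 0.731). The silenced value of 203626_s_at became -0.67 with it (adjusted p = 0.0623), while 203625_x_at stayed called in both states. The value of -0.63 on 203626_s_at was called under 6 of 25 alternatives and turned in sign under 1, the covariate. The calls included fits without the second or the third silenced vehicle array (limma adjusted p = 0.0136 and 0.0176). They also included the fit of the control groups alone (adjusted p = 0.00168). SRF siRNA in vehicle gave 0.37 ± 0.30 on 210567_s_at, which did not pass (1.23, adjusted p = 0.00586, with the GAPDH covariate), and 0.71 ± 0.26 on 203626_s_at (adjusted p = 0.0422), a call lost when any 1 of 8 arrays was left out (values of 0.38 to 0.75, adjusted p up to 0.164). The lowest value was without the second silenced vehicle array, which at 6.07 stood above the other arrays of its group, at 5.38 and 4.76. In R1881 neither of them passed for SRF siRNA, at 0.30 ± 0.30 and 0.33 ± 0.26.

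The difference of R1881 effects for SKP2 was 0.44 ± 0.14 (SE) on 203625_x_at (limma adjusted p = 0.0492) and below 0 on the others, at -0.06 ± 0.42 and -0.38 ± 0.37. It lost its call under 18 of 26 alternatives, 9 of which left out 1 array (values of 0.34 to 0.48). The suffix of 203625_x_at marks a probe set whose probes may bind other transcripts as well.

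CDKN1B, the p27 gene, rose with SRF siRNA and did not pass for R1881. Probe set 209112_at read 10.77, 10.48 and 10.43 in control vehicle, 10.14, 10.36 and 10.39 in control R1881, 10.84, 10.99 and 11.11 in silenced vehicle, and 11.00, 11.10 and 11.18 in silenced R1881. All 6 silenced arrays were above all 6 control arrays, and the silenced groups overlapped each other. SRF siRNA raised it by 0.42 ± 0.11 (SE) in vehicle (limma adjusted p = 0.00856, and 0.108 with the GAPDH covariate) and by 0.79 ± 0.11 in R1881 (adjusted p = 9.90e-05). The R1881 values were -0.26 ± 0.11 in control cells (adjusted p = 0.0645) and 0.11 ± 0.11 in silenced cells (adjusted p = 0.447). The control value was called under 3 of 27 alternatives. These left out the third control vehicle array (-0.33, adjusted p = 0.0435), used quantile normalization (-0.34, adjusted p = 0.0304) or a mean-variance trend (adjusted p = 0.0299). The difference of R1881 effects of 0.37 ± 0.16 did not pass (adjusted p = 0.129). The leading probe sets of CDKN1B and SKP2 were thus both higher after SRF siRNA in both treatments.

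**Figure D3:**
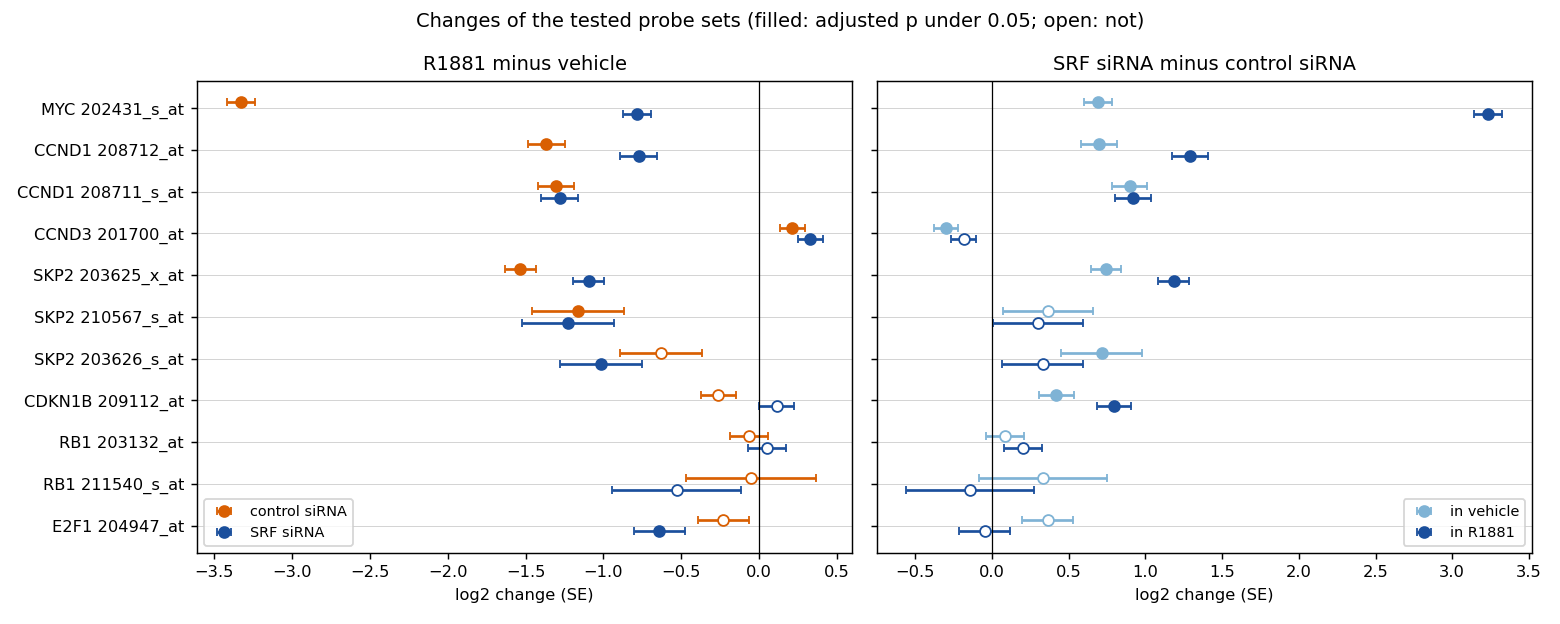
Log2 changes with their SE for the 11 tested probe sets, on the left for R1881 against vehicle in each siRNA and on the right for SRF siRNA against control siRNA in each treatment; filled points passed an adjusted p of 0.05. MYC changes by -3.33 and -0.79 with R1881, and both CCND1 probe sets and all 3 SKP2 probe sets lie below 0 on the left and above 0 on the right.

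RB1, the retinoblastoma gene, did not pass any of the 5 tests on either probe set. With the GAPDH covariate 211540_s_at passed for R1881 in control cells (2.03, limma adjusted p = 0.000689). It then also passed for the difference of effects (-1.72, adjusted p = 0.00278) and for SRF siRNA in vehicle (1.75, adjusted p = 0.000418, against 0.33 without the covariate). The covariate moved with the groups compared, and the unadjusted means of 211540_s_at were 5.12 in control vehicle and 5.06 in control R1881. Probe set 203132_at read 8.80 to 9.10 in control vehicle, 8.73 to 8.91 in control R1881, 8.79 to 9.14 in silenced vehicle and 8.92 to 9.23 in silenced R1881, and its values for the 4 comparisons of groups lay between -0.06 and 0.20, with an SE of 0.12. The dimmer 211540_s_at had 1 array apart, the third silenced R1881 array at 3.64 against 5.72 and 5.41 for the others of its group, which was also the array with the widest GAPDH gap, 0.641. Its R1881 value in silenced cells was -0.53 ± 0.42 (limma adjusted p = 0.322), and 0.11 (adjusted p = 0.689) without that array. The probe sets correlated at r = -0.329 over the 12 arrays.

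E2F1 and RBL1 lay near the limit. The E2F1 probe set 204947_at read 4.69, 4.76 and 4.68 in control vehicle, 4.47, 4.43 and 4.52 in control R1881, 5.25, 4.56 and 5.40 in silenced vehicle, and 4.45, 4.46 and 4.38 in silenced R1881. The R1881 groups overlapped each other and lay below both vehicle groups. R1881 lowered it by -0.64 ± 0.17 (SE) in silenced cells (limma adjusted p = 0.00734), a call lost without the third arrays of both silenced groups (-0.45, adjusted p = 0.0692). In control cells the value was -0.23 ± 0.17 (adjusted p = 0.259). The second silenced vehicle array, at 4.56, decided 3 E2F1 results. Without it the change in control cells was called (-0.23, adjusted p = 0.0208), so was the effect of SRF siRNA in vehicle (0.62, adjusted p = 0.000164, against 0.36 ± 0.17 and 0.0886 with it), and so was the difference of R1881 effects (-0.66, adjusted p = 0.00272, against -0.41 ± 0.23 and 0.260 with it). The other E2F1 probe set lay between 2.74 and 2.92.

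The 4 probe sets of RBL1, the p107 gene, ran from 2.52 to 4.30 and were not tested. The brightest, 205296_at, read 3.54, 3.90 and 3.97 in control vehicle, 3.47, 3.57 and 3.51 in control R1881, 3.79, 4.30 and 3.47 in silenced vehicle, and 3.55, 3.55 and 3.45 in silenced R1881. The vehicle arrays reached higher than the R1881 arrays, but the groups overlapped.

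Of the member genes scanned, E2F1 and RBL1 had a promoter with an E2F motif. These 2 promoters are shown because both genes are themselves known targets of E2F factors and had their highest array in vehicle. MYC, CCND1 and SKP2 also had their highest array in vehicle, and RBL1 was not tested. The motif was TTTCGCGC or TTTGGCGC on either strand. It was sought in the window from 250 bases before to 50 after each start site in RefSeq, build GRCh38.p14. The scan covered 13 promoters of 8 of the 10 genes. MYC was not among these genes, so the member counts say nothing about its promoters. The E2F motif was present in 2 of these 13 promoters, against 1.15% of all 35116 promoters. The E2F1 window is chr20:33686386-33686635 and the RBL1 window chr20:37095998-37096247, both on the minus strand and written 5′ to 3′ for the 250 bases before the start site, with the motif in capitals.
E2F1: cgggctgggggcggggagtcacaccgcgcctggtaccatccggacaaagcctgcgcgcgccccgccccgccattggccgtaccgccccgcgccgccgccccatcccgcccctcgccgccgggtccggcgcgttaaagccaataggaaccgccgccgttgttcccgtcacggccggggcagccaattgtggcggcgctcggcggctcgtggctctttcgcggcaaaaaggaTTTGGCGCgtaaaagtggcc
RBL1: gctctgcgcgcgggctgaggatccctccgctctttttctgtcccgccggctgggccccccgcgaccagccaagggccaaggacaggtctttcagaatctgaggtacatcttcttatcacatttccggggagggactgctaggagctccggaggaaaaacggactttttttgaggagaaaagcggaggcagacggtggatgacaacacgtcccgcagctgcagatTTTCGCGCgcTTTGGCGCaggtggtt
E2F1 held 1 match and RBL1 held 2, set apart by a pair of bases, all on the strand of the gene and within 26 bases of the start site. Among the E2F targets described below the motif was in 9 of 26 promoters, 34.6%, among them those of CDC6, UHRF1 and 4 MCM genes. The MYC E-box, CACGTG, was in 10 of 25 promoters of the MYC targets, 40% against 7.26% of all promoters. It was also in 3 of the 13 member promoters scanned, 23.1%, all of CDK6 or CDKN2C, neither of which was tested. In the other lists the E-box was in 5% to 30.8% of the promoters. None of the 13 member promoters scanned, which did not include MYC, held a CArG box, which 1.29% of all promoters did. These matches describe letters in the window and not bound sites.

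The calls among the 11 probe sets are set here beside those of the whole array. For R1881 in control cells 6 of 11 passed, 1 higher and 5 lower, against 55.8% of all 21526 tested probe sets (24.0% higher and 31.8% lower). In silenced cells 8 of 11 passed, 1 higher and 7 lower, against 47.5% (20.8% higher and 26.7% lower). SRF siRNA called 7 of 11 in vehicle, 6 higher and 1 lower, against 49.1% (26.4% and 22.7%), and 5 of 11 in R1881, all higher, against 53.1% (29.0% higher). For the difference of R1881 effects 3 of 11 passed, all above 0, against 18.6% (9.79% above 0), and these were MYC, 1 CCND1 and 1 SKP2 probe set. Groups did not overlap for 9 and 8 of the 11 with R1881 in control and silenced cells, against 64.1% and 55.3% of all probe sets, and for 7 and 7 with SRF siRNA in vehicle and R1881, against 57.3% and 62.1%. The median R1881 change of the 11 was -0.63 in control and -0.77 in silenced cells, beside -0.07 and -0.06 over all tested probe sets. CCND1, SKP2 and RB1 enter these counts with more than 1 probe set each. With 1 leading probe set a gene, the medians of the 7 genes were -0.26 and -0.64, beside -0.05 and -0.03 over all genes. Of the 7 genes, 4 passed in control cells, 1 higher and 3 lower, against 59.1% of all genes (26.1% and 32.9%). In silenced cells 5 of the 7 passed, 1 higher and 4 lower, against 50.8% (24.4% and 26.4%).

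The partners of these genes were followed in 7 lists, counted by the probe set with the highest mean of each gene and leaving out the member genes. Over all 10265 genes so counted, R1881 called 59.1% in control cells, 26.1% higher and 32.9% lower, and 50.8% in silenced cells, 24.4% higher and 26.4% lower. For the difference of effects 20.7% were called, 11.4% above 0 and 9.28% below, and SRF siRNA called 53.1% in vehicle and 56.9% in R1881. Of 9 cyclin and kinase genes, 5 fell and 2 rose with R1881 in control cells. The cyclin E genes CCNE2 and CCNE1 changed by -2.05 ± 0.16 and -1.48 ± 0.10, CDK4 fell as above, and CDC25A, the gene of a phosphatase that activates CDK2, rose by 1.66 ± 0.20 (SE). In silenced cells CCNE2 fell by 2.45 ± 0.16 and CCNE1 by 0.81 ± 0.10, and CDC25A stood at -0.21 ± 0.20, a difference of effects of -1.87 ± 0.28 that passed. SRF siRNA in R1881 raised CCNE1 by 1.52 ± 0.10.

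Among 5 other CDK inhibitor genes, CDKN2B (p15) rose with R1881 by 1.31 ± 0.19 in control and 2.92 ± 0.19 in silenced cells (SE). The larger rise started from a silenced vehicle mean of 4.03, at the limit, where SRF siRNA had changed CDKN2B by -1.17 ± 0.19. In R1881 SRF siRNA gave 0.45 ± 0.19 for CDKN2B, which did not pass. CDKN2A fell with R1881 by 0.42 ± 0.15 in control cells. CDKN1C (p57) rose by 1.50 ± 0.18 in silenced cells, from a mean of 2.98 near background, and stood at 0.26 ± 0.18 in control cells, a difference of effects of 1.25 ± 0.25 that passed. The p21 gene CDKN1A did not pass for R1881, at 0.15 ± 0.11 and -0.12 ± 0.11, and rose with SRF siRNA by 1.28 ± 0.11 in vehicle and 1.01 ± 0.11 in R1881, as CDKN1B did.

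Of 13 other genes of the RB and E2F family and its DREAM complex, 9 fell and 2 rose with R1881 in control cells, and 9 fell and 1 rose in silenced cells, with list medians of -0.55 and -0.62. The E2F partner gene TFDP1 fell by 1.22 ± 0.10 and 0.62 ± 0.10, the activator gene E2F3 by 0.92 ± 0.15 and 0.91 ± 0.15, and RBL2, the p130 gene, by 0.73 ± 0.10 and 0.77 ± 0.10 (SE), in control and silenced cells. E2F8, the gene of an atypical E2F that represses transcription, changed by -0.77 ± 0.19 and -1.31 ± 0.19. It rose with SRF siRNA by 1.66 ± 0.19 in vehicle and 1.12 ± 0.19 in R1881. Its means were 3.635 in control vehicle, 2.866 in control R1881, 5.296 in silenced vehicle and 3.982 in silenced R1881. All but silenced vehicle were under the limit of 4, so the sizes of these E2F8 changes depend on the background estimate. TFDP2, the gene of a second E2F partner, changed by -0.88 ± 0.13 in control cells. MYBL2, a gene of the activating form of the complex, fell by 0.55 ± 0.19 and 1.50 ± 0.19, from a silenced vehicle level that SRF siRNA had raised by 1.27 ± 0.19. Of 12 other genes of the SKP2 ligase and p27 turnover, 5 fell and 1 rose in each state. CKS2 and CKS1B, genes of small CDK-binding proteins of which CKS1B helps SKP2 bind p27, fell by 1.72 ± 0.09 and 0.82 ± 0.13 in control cells, and SRF siRNA raised both in vehicle, by 1.58 ± 0.09 and 1.32 ± 0.13. RBX1, the RING subunit gene, rose with R1881 by 0.72 ± 0.10 and 0.63 ± 0.10 in control and silenced cells.

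The targets of E2F fell in both states. Of 20 tested E2F target genes 18 fell and none rose with R1881 in control cells, with a median of -1.16, and 18 fell and none rose in silenced cells, with a median of -0.85. The medians of all genes were -0.05 and -0.03. RRM2 and TYMS, genes of nucleotide synthesis, changed by -4.96 ± 0.25 and -4.18 ± 0.13 in control cells and by -1.97 ± 0.25 and -1.59 ± 0.13 in silenced cells, and UHRF1, a gene of DNA methylation upkeep, by -3.06 ± 0.14 and -1.59 ± 0.14 (SE). The thymidine kinase gene TK1 changed by -2.70 ± 0.24 and -2.05 ± 0.24. In control R1881 the mean levels of RRM2, UHRF1 and TK1 were 3.63, 3.07 and 3.48, under the limit of 4, so the sizes of their falls in control cells, and of the differences that follow for RRM2 and UHRF1, depend on the background estimate. The difference of effects passed the test for 9 of the 20, all of them above 0, with RRM2 at 2.99 ± 0.36, TYMS at 2.59 ± 0.19, UHRF1 at 1.47 ± 0.19 and CCNE1 at 0.67 ± 0.14. SRF siRNA raised 13 and lowered 1 of the 20 in vehicle and raised 14 and lowered 1 in R1881, where over all genes 29.3% and 32.4% were higher. Over the alternatives 3 to 10 differences were called above 0 and 11 to 20 falls in control cells, the lowest counts being those that also required a 2-fold change.

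Part of the MYC target genes of ribosome and nucleotide synthesis fell with R1881, and whether this followed from MYC was not tested. Of 18 tested, 12 fell and 1 rose with R1881 in control cells (median -0.52) and 8 fell and 1 rose in silenced cells (median -0.17). WDR12, FBL and CDK4 led the falls in control cells, at -1.72 ± 0.08, -1.46 ± 0.08 and -1.19 ± 0.07 (SE), and ODC1, the polyamine enzyme gene and a known androgen target, rose by 1.50 ± 0.07 against them. The difference of effects passed the test for 10 of the 18, all of them above 0, led by WDR12 at 0.91 ± 0.11, the RNA polymerase I gene POLR1B at 0.83 ± 0.12 and FBL at 0.79 ± 0.11. That count ran from 0, where a 2-fold change was also required, to 11. Among 12 tested MYC network genes other than MYC, 6 fell and 3 rose with R1881 in control cells and 4 fell and 4 rose in silenced cells. The MYC antagonist gene MXI1 fell by 1.34 ± 0.08 and 0.91 ± 0.08, the paralog MYCL rose by 1.27 ± 0.15 and 0.99 ± 0.15, and the MYC partner gene MAX fell by 0.26 ± 0.09 and 0.32 ± 0.09. SRF siRNA raised MXD1, another antagonist gene, by 1.27 ± 0.16 in vehicle and 1.74 ± 0.16 in R1881.

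**Figure D4:**
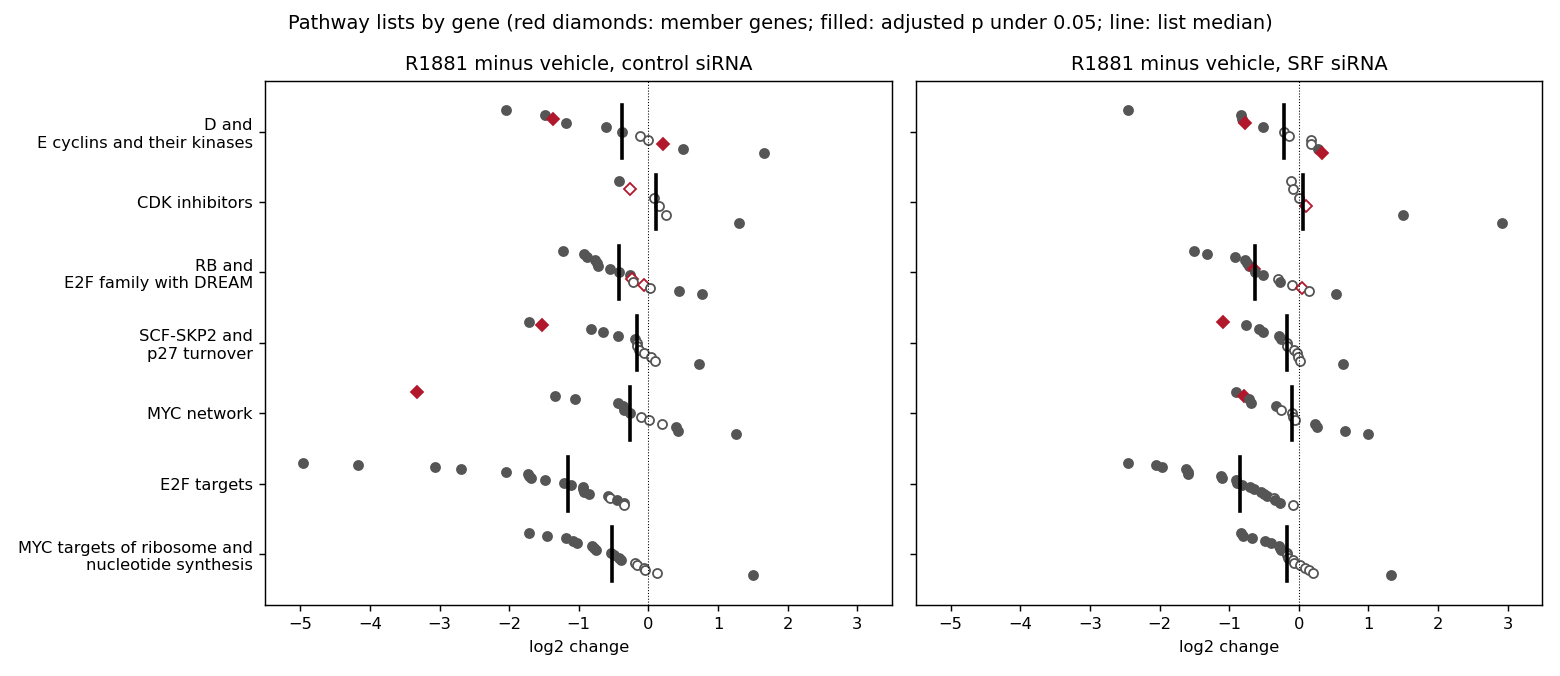
Log2 change of each tested gene with R1881 in control cells (left) and SRF-silenced cells (right), by list, with member genes as red diamonds, filled points for an adjusted p under 0.05 and a line at each list's median. E2F targets have medians of -1.16 and -0.85 and MYC targets -0.52 and -0.17; MYC stands at -3.33 on the left and -0.79 on the right.

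The genes whose pattern over the 12 arrays was most like that of a member were found by Pearson r, as a description of arrays that share 4 groups. For MYC they were CAMK2N1 (r = 0.997), PRAC1 (0.992) and DYNLL1 (0.992). For CCND1 they were BIRC5, CCNE1 and EPPK1 (0.983 to 0.987), and for SKP2 they were CCNB2, RCC1 and TRNT1 (0.992 to 0.995). CCND3 was most like NUDT16L1, CDCP1 and YOD1 (0.965 to 0.980), and CDKN1B most like RNF126, GTF2H3 and YY1 (0.963 to 0.972). The nearest genes to E2F1 were CCDC88A, GARIN4 and CEP131 (0.921 to 0.955), and those to RB1 were IFIT5, PTPDC1 and WDR48 (0.899 to 0.916).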

How the data were processed

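Biotinylated cRNA from 3.5 µg of total RNA was hybridised to 12 arrays. The deposited log2 signals, 1 for each of 54675 probe sets and array, were made by the authors with GCRMA, per the submitters' processing notes, whose version is not given in the sources used here. GCRMA estimates background from probe sequence, so a change against a level under about 4 depends on that estimate. The 62 control probe sets were left out. Symbols came from the platform annotation, updated through gene numbers (41097 probe sets had 1 symbol). Group means were fitted with limma 3.58.1 in R 4.3.3 for all 21526 probe sets with a value above 4 on at least 3 arrays; eBayes moderated the variances, and p-values were adjusted by Benjamini-Hochberg across the whole set. A call is an adjusted p under 0.05. The difference of effects is the R1881 change in silenced cells minus that in control cells. SE is limma's standard error, after moderation, of a log2 difference. The fit was tested on simulated data.

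The genes, the 7 lists and the naming rule (all member probe sets, the leading probe set being the one with the highest mean; for each list, up to 4 genes with the largest called changes in a comparison described; the 3 genes most like each member) were chosen with earlier results of these data known. Not every gene that the rule gives is named, and that choice among them, like MAX, which lies outside the rule, was made after their values were seen; a gene named in 1 comparison may have its values in others beside it. Alternatives changed the filter, a floor, the normalization, how variances were modelled, which arrays or probe sets entered, the threshold, a replicate block and a GAPDH covariate. List counts under these alternatives were added after seeing the data. Replicate numbers did not pair the arrays: of 18 same-numbered pairs of arrays across groups, 2 had deviations correlated above 0.1 (median 0.01). Figures used matplotlib 3.10.9.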

Additional observations from a re-analysis of the deposited data

Results flagged for a closer look

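In 3 probe sets the response to R1881 was not the same with and without SRF siRNA by limma's test of the difference. The MYC probe set 202431_s_at differed by 2.54 (adjusted p = 3.28e-07), lower with R1881 in all arrays of both states and far less so after silencing. The CCND1 probe set 208712_at differed by 0.60 (adjusted p = 0.0289), while its second probe set did not pass at 0.02. The SKP2 probe set 203625_x_at differed by 0.44 (adjusted p = 0.0492), while its other probe sets did not pass at -0.06 and -0.38. The GAPDH 3-prime to 5-prime gap rose from 0.14 to 0.46 with R1881 in control cells and from 0.36 to 0.49 in silenced cells. With that gap as a covariate the MYC difference stayed called, and the CCND1 and SKP2 differences were 0.66 and 0.31 (adjusted p = 0.0527 and 0.220).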

How the results depend on the processing

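The falls of MYC, of both CCND1 probe sets and of the leading SKP2 probe set with R1881 in control cells, and the MYC difference of effects, kept their direction and their call under every alternative run. The number of arrays and the nearness of E2F1, RBL1 and the dimmer SKP2 and RB1 probe sets to background limit the rest. With 1 probe set a gene, fewer features were tested, and 6225, 5453, 2441, 5717 and 6058 genes were called for R1881 in control cells, R1881 in silenced cells, the difference of effects, SRF siRNA in vehicle and SRF siRNA in R1881, where the probe set fit called 12021, 10219, 4010, 10576 and 11434. Of the 7 member genes 5 were then called in silenced cells, against 8 of 11 probe sets. Calls that also reached a 2-fold change numbered 3174, 2277, 1053, 2095 and 2501, of which 4 were member probe sets for R1881 in silenced cells, 1 for the difference, 0 for SRF siRNA in vehicle and 3 in R1881. At an adjusted p under 0.01 the difference was called for 2016 probe sets and 1 member. That 1 member, MYC, was also the count with no filter, with quantile normalization and without the third silenced arrays, and leaving out each array in turn gave 1 to 3. With the GAPDH covariate, 7362 probe sets were called for R1881 in control cells. The cause of these shifts was not tested.

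With the replicate number as a block, 6, 8, 2, 7 and 5 member probe sets were called in the same order; CCND3 lost its call for R1881 in control cells (adjusted p = 0.0683), SKP2 203625_x_at lost that for the difference (0.0531), and SKP2 203626_s_at gained one for R1881 in control cells (0.0391). No other member's call changed with the block.

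Values turned in sign under some alternatives, nearly all for results that had not passed. For R1881 in control cells, RB1 203132_at ran from -0.12 to 0.0321 over fits that each left out 1 array and RB1 211540_s_at from -0.21 to 0.13; the latter was 0.0528 with quantile normalization and 2.03 with the GAPDH covariate (adjusted p = 0.000689). That covariate gave 0.22 and 0.11 for SKP2 203626_s_at and 210567_s_at, the second of which had been called. The covariate moved with R1881 in control cells, so its effect and that of R1881 cannot be cleanly told apart there. For R1881 in silenced cells RB1 203132_at ran from -0.05 to 0.13 and 211540_s_at from -0.93 to 0.11, the latter at 0.30 with the covariate. For the difference, CCND1 208711_s_at ran from -0.0674 to 0.14, with -0.0409 after quantile normalization, -0.0189 with the covariate and -0.0865 without the third silenced arrays. SKP2 210567_s_at ran from -0.29 to 0.26, with 0.18 without those arrays, and RB1 211540_s_at from -0.87 to 0.17, with 0.0272 without them. For SRF siRNA, RB1 203132_at was -0.0026 in vehicle with the covariate. In R1881, RB1 211540_s_at ran from -0.54 to 0.50, with 0.0204 under the covariate and 0.50 without the third silenced arrays (adjusted p = 0.0481). The cause was not tested.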
